A study of Homo sapiens with 6 samples.

Results

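The lysosome and autophagy genes described here are 35 genes of MRC5 lung fibroblasts. They were chosen by symbol and by what their products are known to do, and comprise 3 transcription factors of the TFEB family, 4 lysosomal membrane proteins, 10 lysosomal proteases, 7 glycosidases, 3 proteins of lysosomal lipid handling, 5 proteins that start an autophagosome, and 3 ATG8 or cargo receptor proteins. All 35 were found among the 58676 gene identifiers of the count table. MRC5 is an established line of human fetal lung fibroblasts, and every library comes from this 1 line. The cells were kept for 24 h in conditioned medium (CM) of ATII ER:KRASV12 cells, a human alveolar type II epithelial line whose KRASV12 protein is fused to an estrogen receptor domain and becomes active when 4-hydroxytamoxifen (4-OHT) is added. The CM was taken from control cells without 4-OHT for 3 libraries (control ATII CM) and from cells given 4-OHT for 24 h for the other 3 (4-OHT ATII CM). Both groups therefore received medium from the same engineered epithelial line, and no source used here says that 4-OHT was removed from the medium, so 4-OHT carried into the fibroblasts and factors released by RAS-activated epithelial cells cannot be told apart. The study asked what fibroblasts express when they receive signals from RAS-activated epithelium, and here that question is put to the lysosome and to autophagy.

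Lysosomes are acidic organelles in which hydrolases break down proteins, glycans and lipids that arrive by endocytosis or autophagy. In macroautophagy, ULK1 and the Beclin 1 lipid kinase complex start a membrane that is extended with ATG8 proteins attached to its lipids, closes around its cargo as an autophagosome and then fuses with a lysosome. TFEB, TFE3 and MITF are related transcription factors that, when they enter the nucleus, bind E-box motifs in promoters of many lysosomal and autophagy genes. Fibroblasts also secrete some cathepsins, and the matrix-degrading ones among them act on collagen outside and inside the cell.

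Library totals ran from 17691849 to 26389449 counts, with a median of 22273931, and 19072 genes with at least 10 counts over the 6 libraries were tested with edgeR's quasi-likelihood test. A gene is called a DEG at a Benjamini-Hochberg adjusted p below 0.05 over all 19072. Levels are CPM after TMM scaling unless stated otherwise, that is, counts set to a common library size. Fold changes are 4-OHT ATII CM over control ATII CM, on the log2 scale. No source used here says whether the 3 libraries of a group came from separate cultures, so p values measure the spread between these libraries, which may be technical. Summed fibroblast markers overlapped between the groups, at 41484.7 to 44441.6 CPM in control ATII CM and 43156.7 to 44351.4 CPM in 4-OHT ATII CM, although 4 of the 10 markers (DCN, LUM, PDGFRA and COL3A1) were upregulated DEGs and VIM was downregulated. Summed epithelial markers were at 90.5 to 97.6 and 87.8 to 94.96 CPM, mainly from KRT8, KRT18 and KRT19, with SFTPA1 at 0 counts, SFTPB and SFTPC at 1 count each and CDH1 at 4. Macrophage markers, which bear on these genes because macrophages are rich in lysosomes, summed to 0.797 to 1.45 CPM in control ATII CM and 1.10 to 2.12 CPM in 4-OHT ATII CM. Of their 6 genes 2 could be tested, and neither was called. CD14 was higher in all 3 libraries of 4-OHT ATII CM, with a log2 fold change of 0.97 (adjusted p = 0.0597 from edgeR). The other tested macrophage marker went the other way, with a log2 fold change of -1.28, and MARCO was at 0. The part of these cells in the results was not tested. Endothelial markers summed to at most 0.565 CPM, with PECAM1 and CDH5 at 0. Control replicate 2, which had the smallest total, stood apart from the rest, and it held the highest control value of 17 of the 33 members that could be tested. Results that rest on it are given with and without it.

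Of the 35 genes, 33 passed the count filter, and 5 of these were upregulated DEGs in 4-OHT ATII CM: the ATG8 protein gene GABARAPL1, the protease gene CTSF, the glycosidase genes GAA and HEXA, and the sphingolipid activator gene PSAP. None was a downregulated DEG in edgeR or in any of the 12 alternatives, although LAMP1 was lower at an unadjusted p under 0.05. The 5 genes rose by between 7.08% and 18.2%. Among all genes tested, 5.72% were DEGs in either direction, 2.95% up and 2.76% down, and 15.2% of the 33 members were up. Most members are well expressed, which makes small changes easier to call, and among genes with a mean of at least 10 CPM 5.54% were up and 4.66% down. Of the 33 members, 31 reach that mean. The median log2 fold change of the 33 members was 0.023, with an interquartile range of -0.0043 to 0.085, beside a median of -0.0020 over all genes tested. Over the 12 alternatives the members' median ran from 0.019 without control replicate 1 to 0.035 without 4-OHT replicate 1. In that last fit the median of all genes was 0.0050. The fold change was above 0 in 20 members and below 0 in 13, and above 0 in 19 to 25 over the alternatives. All 3 values in 4-OHT ATII CM lay above all 3 in control ATII CM for 9 members (27.3%, where 11.7% of all genes and 16.9% of those with at least 10 CPM did so). They lay below for 1 member (3.03%, where 10.4% of all genes and 13.5% of those with at least 10 CPM did so).

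**Figure D1:**
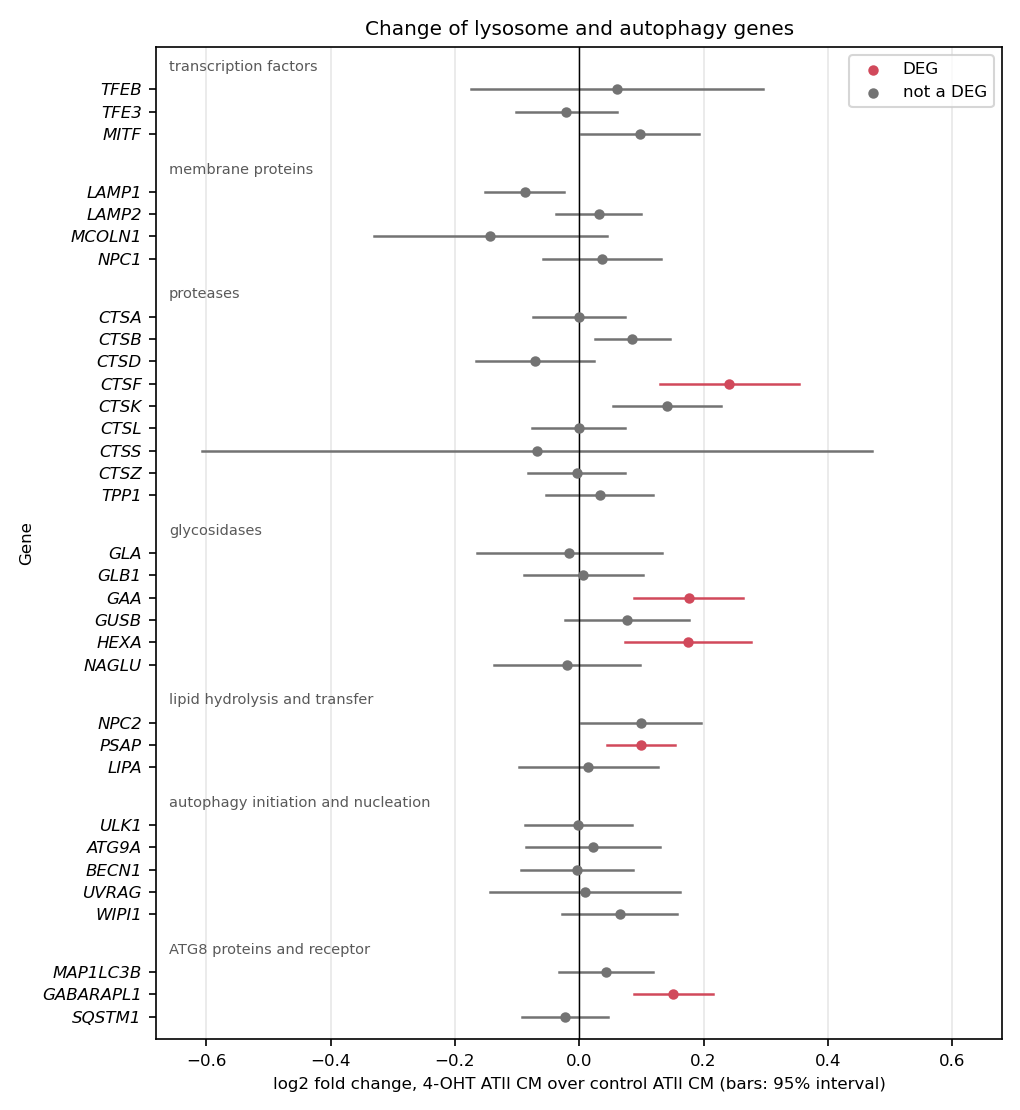
Log2 fold change (4-OHT ATII CM over control ATII CM, horizontal axis) of the 33 tested lysosome and autophagy genes, grouped by role, with points for the edgeR estimate and bars for its 95% interval. The 5 DEGs, from PSAP at 0.10 to CTSF at 0.24, all lie to the right of 0, and the wide bar belongs to CTSS, which had a mean of 1.33 CPM.

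The count of 5 depended on single libraries. It was 2 without control replicate 1, 6 without control replicate 2, 0 without control replicate 3, 2 without 4-OHT replicate 1, 2 without 4-OHT replicate 2 and 1 without 4-OHT replicate 3. The upregulated share of all genes moved as well, to 2.20%, 3.73%, 1.75%, 2.35%, 1.56% and 1.70% in the same order. The fold changes of the 5 genes kept their sign in all of these fits. In bulk RNA a higher level can come from more RNA per cell or from a changed mix of cells, and these cannot be told apart.

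Most of these genes are abundant in MRC5 cells. Expressed per kilobase of merged exon (RPKM), which allows levels of different genes to be set side by side, 31 of the 33 lay above the median of all genes tested and 14 above the 90th percentile. PSAP was the highest, at a mean level of 367 RPKM over the 6 libraries. CTSB followed at 186 RPKM, GABARAPL1 at 108, LAMP1 at 96.1, CTSZ at 81.9 and CTSL at 64.8 RPKM. CTSS, a protease known best from antigen-presenting cells, was the lowest of the tested members at 0.316 RPKM, below TFEB at 1.37 and UVRAG at 2.69 RPKM. In the order of these levels, 14 of the 32 pairs of neighbours overlapped in their ranges over the libraries and so are not placed apart. Merged exon length includes exons that are rarely used, so that genes with long and little-used exons are set too low on this scale.

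**Figure D2:**
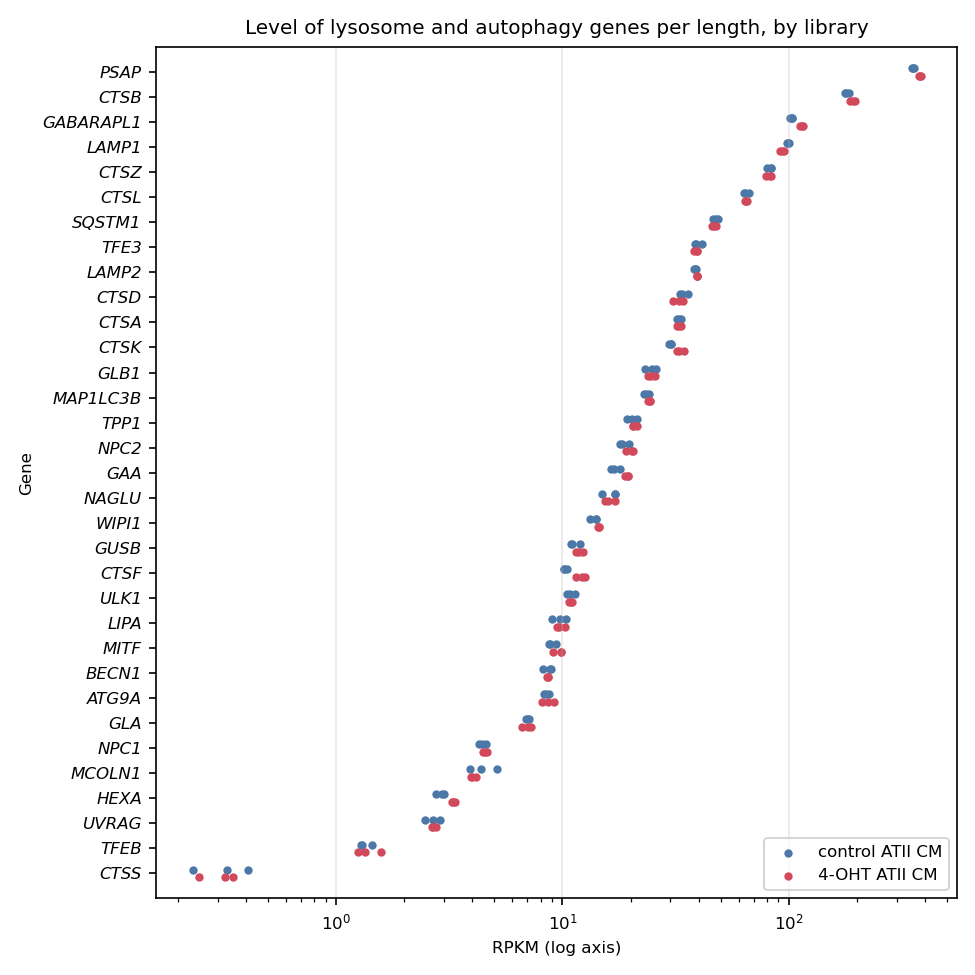
Level of each tested member in every library, in RPKM on a log axis, with one row per gene ordered by its mean and separate colors for the 3 libraries of each group. Levels span from PSAP at a mean of 367 RPKM down to CTSS at 0.316 RPKM, a far wider range than any difference between the groups.

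The 3 transcription factors among the members were all expressed, and none was a DEG. TFE3 had the highest level of the 3, at a mean RPKM 28.8-fold that of TFEB and 4.24-fold that of MITF. TFEB, after which the family is named, was at 7.26, 8.12 and 7.32 CPM in replicates 1 to 3 of control ATII CM and at 7.03, 7.58 and 8.94 CPM in 4-OHT ATII CM. The groups overlapped, and the interval of the change ran from -11.3% to 22.8%. TFE3 was at 165, 178 and 167 CPM in control ATII CM and 169, 169 and 164 CPM in 4-OHT ATII CM, with a narrower interval of -6.77% to 4.25%. MITF, which also directs pigment cell genes, was at 67.1, 62.5 and 63.1 CPM in control ATII CM and 70.7, 65.2 and 70.7 CPM in 4-OHT ATII CM. The difference, 0.10 on the log2 scale, was not called (adjusted p = 0.267 from edgeR), and the lowest 4-OHT library lay below the highest control library. RNA levels do not show whether these proteins were in the nucleus.

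Promoters of lysosomal genes often carry the E-box that this family binds, and the sequences of 4 members are shown because 2 of them belong to DEGs and 2 to genes with the same motif that were not called. Each is the 250 bases before the RefSeq start of the gene (GRCh38.p14), read 5′ to 3′ on the gene's own strand. Capitals mark the letters CACGTG, or TCACGTGA where the longer form is present. CACGTG reads the same on both strands, as does TCACGTGA, which contains it. GAA lies at chr17:80101331-80101580 on the plus strand, CTSF at chr11:66568607-66568856 on the minus strand, LAMP1 at chr13:113296989-113297238 on the plus strand and MCOLN1 at chr19:7522374-7522623 on the plus strand. The deposited gene models of GAA and CTSF begin upstream of the RefSeq start, inside the stretch shown.
GAA: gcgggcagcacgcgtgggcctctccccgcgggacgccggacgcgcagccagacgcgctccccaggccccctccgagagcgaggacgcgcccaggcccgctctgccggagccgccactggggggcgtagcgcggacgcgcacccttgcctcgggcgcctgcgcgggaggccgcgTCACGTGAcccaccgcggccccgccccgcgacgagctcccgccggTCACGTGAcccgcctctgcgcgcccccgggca
CTSF: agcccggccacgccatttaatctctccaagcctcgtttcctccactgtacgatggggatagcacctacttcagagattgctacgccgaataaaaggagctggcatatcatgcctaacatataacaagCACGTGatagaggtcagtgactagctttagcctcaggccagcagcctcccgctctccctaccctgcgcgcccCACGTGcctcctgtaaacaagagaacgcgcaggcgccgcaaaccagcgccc
LAMP1: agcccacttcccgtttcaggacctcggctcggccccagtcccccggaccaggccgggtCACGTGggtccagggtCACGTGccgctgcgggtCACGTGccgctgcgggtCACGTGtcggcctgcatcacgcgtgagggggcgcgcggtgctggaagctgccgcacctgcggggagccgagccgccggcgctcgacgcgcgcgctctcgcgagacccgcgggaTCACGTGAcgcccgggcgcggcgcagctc
MCOLN1: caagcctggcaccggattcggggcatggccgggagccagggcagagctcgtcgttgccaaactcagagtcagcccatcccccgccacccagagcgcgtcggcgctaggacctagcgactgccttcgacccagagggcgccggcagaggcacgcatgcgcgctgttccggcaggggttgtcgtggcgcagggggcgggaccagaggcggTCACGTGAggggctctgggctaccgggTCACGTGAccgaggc

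GAA carries the 8-letter form in both of its matches, and the CACGTG within them begins 76 and 31 bases before the start. CTSF carries only the 6-letter form, beginning 123 and 51 bases before it. LAMP1 holds 5 matches of CACGTG, 1 of them in the longer form, and MCOLN1 holds 2, both in the longer form. Promoter sequences of 26 of the 35 members were at hand, and CACGTG was in 7 of them (26.9%), beside 1772 of 27305 promoters of the same length (6.49%). The 7 are CTSA, CTSD, CTSF, GAA, LAMP1, MCOLN1 and NEU1. TCACGTGA was in 4 (15.4%), beside 0.890% of all promoters. Members with and without the motif overlapped in their changes. Of the 6 tested members that carry CACGTG, 2 were upregulated DEGs, and their log2 fold changes ran from -0.14 to 0.24 around a median of -0.036. Of the 19 without it, 1 was an upregulated DEG, GABARAPL1, and the median was 0.023. The DEGs PSAP and HEXA are among the members with no promoter sequence at hand, so these counts cover 3 of the 5 DEGs. A match of letters is a description of the sequence and not a binding site, and the members were picked as lysosomal genes, many of which are known to carry it.

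Among the lysosomal membrane proteins none was a DEG, and the most abundant one had the lower level in 4-OHT ATII CM. LAMP1 (ENSG00000185896), a heavily glycosylated protein that lines the lysosomal membrane, was at 567, 574 and 564 CPM in control ATII CM and 548, 524 and 533 CPM in 4-OHT ATII CM. All 3 values in 4-OHT ATII CM were below those in control ATII CM, a log2 fold change of -0.09 with an adjusted p of 0.111 from edgeR, which stayed above 0.05 in all 12 alternatives (0.0521 to 0.322). LAMP2, its partner and the receptor of chaperone-mediated autophagy in one isoform, was at 209.8 to 214 CPM in control ATII CM and 217 to 218 CPM in 4-OHT ATII CM, with an interval of the change from -2.53% to 7.14%. MCOLN1, the calcium channel of the lysosome, was at 15.4, 20.3 and 17.3 CPM in control ATII CM and 15.5, 15.7 and 16.4 CPM in 4-OHT ATII CM. Control replicate 2 stands out among these values, and the log2 fold change was -0.14 with all libraries, -0.04 without that one and -0.23 without control replicate 1, and was not called in any of these fits. NPC1, which moves cholesterol out of the lysosome, was at 43.2 to 46.3 CPM in control ATII CM and 44.8 to 46.7 CPM in 4-OHT ATII CM.

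Of the 10 proteases, 9 were tested and 1 was a DEG. CTSF (ENSG00000174080, GRCh38 chromosome 11 from 66563463 to 66568841, minus strand) encodes cathepsin F, a cysteine protease. It was at 29.4, 30.2 and 29.3 CPM in control ATII CM and 35.3, 33.2 and 36.6 CPM in 4-OHT ATII CM. The groups stood clear of each other, at 29.6 ± 0.461 CPM (SD, n = 3) and 35.02 ± 1.70 CPM (SD, n = 3), with a log2 difference of 0.24 and an SE of 0.0525 (adjusted p = 0.0113 from edgeR). This was the largest change among the 33 members, and its interval ran from 9.41% to 27.7%. It was not called without control replicate 3 (adjusted p = 0.0624) or without 4-OHT replicate 3 (adjusted p = 0.0983).

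CTSK and CTSB, both cysteine proteases, came next among the proteases and were not called. CTSK (ENSG00000143387), cathepsin K, a collagen-degrading enzyme best known from osteoclasts, was at 57.1, 56.7 and 56.0 CPM in control ATII CM and 61.8, 65.1 and 60.3 CPM in 4-OHT ATII CM. The groups did not overlap, but the adjusted p was 0.0544 from edgeR, with a log2 fold change of 0.14. Without control replicate 2 it was 0.0445, and over all 12 alternatives it ran from 0.0202 to 0.249. CTSB (ENSG00000164733), cathepsin B, the protease with the highest level, was at 1313, 1376 and 1331 CPM in control ATII CM and 1391, 1453 and 1421 CPM in 4-OHT ATII CM. Here too every 4-OHT library lay above every control library. The log2 fold change was 0.09 with an adjusted p of 0.103 from edgeR, and without control replicate 2 it was 0.10 with an adjusted p of 0.00828. With all libraries CTSB was a DEG by limma-voom (adjusted p = 0.0389) and with genes of at least 1 count tested in edgeR (0.0471), and over all 12 alternatives the adjusted p ran from 0.00828 to 0.338.

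The other proteases showed little difference between the groups. CTSA, the protective protein of lysosomal glycosidases, CTSL and CTSZ, which are cysteine proteases, and TPP1, a tripeptidyl peptidase, had log2 fold changes between -0.0043 and 0.033, and each had an interval that stayed within 10% of no change. CTSD, the main aspartic protease of the lysosome, was at 106, 103 and 112 CPM in control ATII CM and 96.3, 107 and 102 CPM in 4-OHT ATII CM, and the groups overlapped. Of its exon bases, 41.7% are shared with ENSG00000250644 on the same strand, which itself had 14 counts. CTSS, at 0.984 to 1.72 CPM, was too thinly covered for a comparison of this size, with an interval from -34.3% to 38.6%. CTSO, a further cysteine protease (chromosome 4, 155924118 to 155953917), had 0 counts in every library.

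Of the 7 glycosidases, 6 were tested and 2 were DEGs. GAA (ENSG00000171298, chromosome 17 from 80101556 to 80119879, plus strand) encodes acid alpha-glucosidase, which degrades glycogen in the lysosome and is deficient in Pompe disease. It was at 86.7, 92.6 and 84.3 CPM in control ATII CM and 100.4, 100.01 and 97.1 CPM in 4-OHT ATII CM. The highest control library, replicate 2, still lay below the lowest 4-OHT library, and the means of 87.9 ± 4.27 and 99.2 ± 1.82 CPM (SD, n = 3 each) gave a log2 fold change of 0.18 with an SE of 0.0413 (adjusted p = 0.0185 from edgeR). Without control replicate 2 the log2 fold change was 0.21 and the adjusted p 0.000643. With that library kept and another left out GAA was not called, at adjusted p values of 0.0746 without control replicate 1, 0.140 without control replicate 3, 0.0700 without 4-OHT replicate 1, 0.0968 without 4-OHT replicate 2 and 0.0506 without 4-OHT replicate 3.

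HEXA (ENSG00000213614, chromosome 15 from 72340919 to 72376476, minus strand) encodes the alpha subunit of beta-hexosaminidase, which removes a sugar from ganglioside GM2 and is deficient in Tay-Sachs disease. It was at 37.2, 34.8 and 37.9 CPM in control ATII CM and 42.1, 41.5 and 40.8 CPM in 4-OHT ATII CM. The groups did not overlap, with means of 36.6 ± 1.66 and 41.5 ± 0.622 CPM (SD, n = 3 each). Its log2 fold change was 0.17, with an SE of 0.0476 and an adjusted p of 0.0414 from edgeR. HEXA was the least secure of the 5. It was not called by DESeq2 (adjusted p = 0.100), by limma-voom (0.0504) or when any single library was left out (0.0711 to 0.125). Without control replicate 2, its lowest control library, the log2 fold change was 0.14 with an adjusted p of 0.0827 from edgeR.

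No other glycosidase was called. GUSB, beta-glucuronidase, had a log2 fold change of 0.08 (adjusted p = 0.455 from edgeR), with 43.6 to 47.5 CPM in control ATII CM and 45.9 to 49.2 CPM in 4-OHT ATII CM. GLB1, the lysosomal beta-galactosidase behind the stain used for senescent cells, was at 109, 113 and 101 CPM in control ATII CM and 108, 104 and 111 CPM in 4-OHT ATII CM. Its groups overlapped almost wholly, and the interval ran from -5.94% to 7.31%. GLA and NAGLU, which degrade globotriaosylceramide and heparan sulfate, each had a log2 fold change of -0.02. NEU1 (chromosome 6, 31857659 to 31862906), the lysosomal sialidase, had 0 counts in every library. A count of 0 was taken to allow up to 3 counts, which is 0.114 to 0.170 CPM by library. This bound is a set value that covers counting error only. Copies of NEU1 transcripts were found on 7 alternate contigs of the assembly and of CTSO on 1, and on none for the other 33 members. Whether reads were lost to these copies was not tested, so that the 0 is no measure of expression.

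Of the 3 genes of lysosomal lipid handling, 1 was a DEG. PSAP (ENSG00000197746, chromosome 10 from 71816298 to 71851375, minus strand) encodes prosaposin, the precursor of the saposins that present sphingolipids to their hydrolases, and is also secreted. It was at 1139, 1158 and 1149.9 CPM in control ATII CM and 1235, 1238 and 1218 CPM in 4-OHT ATII CM. The libraries of each group lay close together, at 1149 ± 9.35 and 1230.2 ± 10.8 CPM (SD, n = 3 each), and the groups did not overlap. The rise was 7.08% (interval 3.09% to 11.2%), or 0.10 on the log2 scale with an SE of 0.0257 (adjusted p = 0.0333 from edgeR). PSAP was called without control replicate 2 (adjusted p = 0.00588) but not when another single library was left out, with 0.102 without control replicate 1, 0.132 without control replicate 3, 0.0923 without 4-OHT replicate 1, 0.129 without 4-OHT replicate 2 and 0.138 without 4-OHT replicate 3. NPC2, a soluble protein that hands cholesterol to NPC1, was at 49.6 to 53.8 CPM in control ATII CM and 52.4 to 56.3 CPM in 4-OHT ATII CM, and its log2 fold change of 0.10 was not called (adjusted p = 0.276 from edgeR). LIPA, the acid lipase for cholesteryl esters, had a log2 fold change of 0.01, which turned to -0.045 without control replicate 3 and -0.013 without 4-OHT replicate 1.

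**Figure D3:**
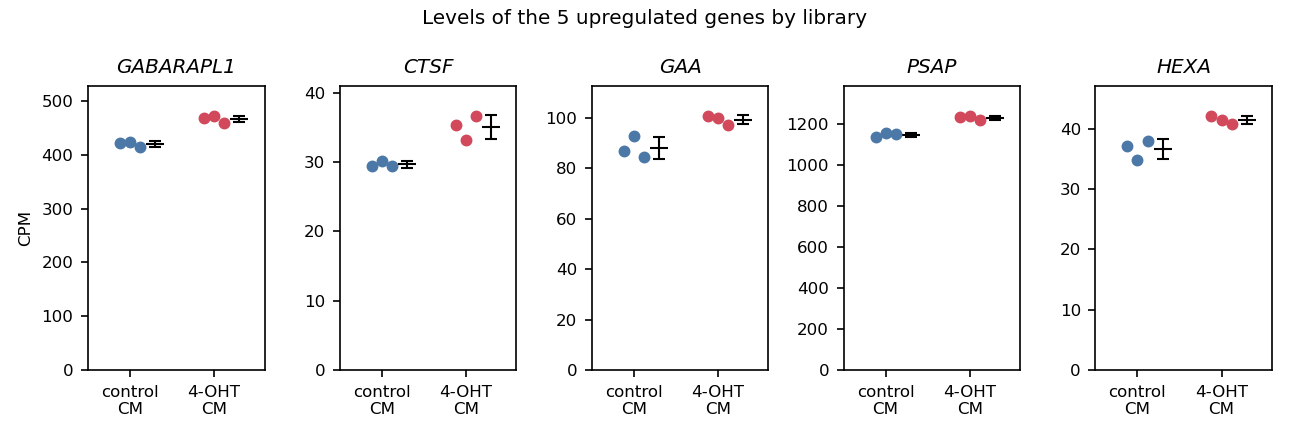
CPM in each library for the 5 DEGs GABARAPL1, CTSF, GAA, PSAP and HEXA, one panel per gene, with points for the 3 libraries of each group and a line with bars for the mean and SD. In all 5 panels every 4-OHT ATII CM library lies above every control ATII CM library, with GABARAPL1 at 414 to 424 CPM in control ATII CM and 459 to 471 CPM in 4-OHT ATII CM.

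None of the 5 genes that start an autophagosome was a DEG, and the data bound their changes closely. ULK1, the kinase that opens the process, was at 79.8, 81.8 and 86.8 CPM in control ATII CM and 81.7, 83.0 and 83.6 CPM in 4-OHT ATII CM. BECN1, which encodes Beclin 1, was at 57.3, 56.4 and 52.5 CPM in control ATII CM and 55.6, 54.6 and 55.4 CPM in 4-OHT ATII CM. In both genes the 4-OHT libraries fell inside the control range. For ULK1, BECN1, ATG9A, which carries membrane to the growing autophagosome, and UVRAG, a Beclin 1 partner, the intervals together lay between -9.48% and 11.9%. WIPI1, which reads the lipid made by the Beclin 1 complex, was at 44.9 to 48.1 CPM in control ATII CM and 48.6 to 49.4 CPM in 4-OHT ATII CM. Its groups did not overlap, but the log2 fold change of 0.07 was not called (adjusted p = 0.498 from edgeR) and was 0.026 without control replicate 3. Exons of WIPI1 share 24.3% of their bases with ARSG on the opposite strand, and the strand setting of the counting is not given in the sources used here.

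GABARAPL1 was the DEG with the smallest p of all members. It encodes an ATG8 protein of the GABARAP branch, which is attached to lipid on the autophagosome and binds cargo receptors (ENSG00000139112, chromosome 12 from 10212458 to 10223130, plus strand). It was at 422, 424 and 414 CPM in control ATII CM and 469, 471 and 459 CPM in 4-OHT ATII CM. The groups were widely separated for their spread, at 419.9 ± 4.94 and 466 ± 6.31 CPM (SD, n = 3 each), with a rise of 11.1% (interval 6.29% to 16.04%) or 0.15 on the log2 scale with an SE of 0.0297 (adjusted p = 0.00573 from edgeR). It remained a DEG in 11 of 12 alternatives, and without control replicate 3 the adjusted p was 0.0503. GABARAPL3, with transcripts that match those of GABARAPL1 at up to 95.6% identity, had 0 counts for one identifier and 2 for the other, and reads that fit both genes could have been left out or split.

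MAP1LC3B, the LC3 protein most used to follow autophagosomes, was at 125, 127 and 122 CPM in control ATII CM and 129, 127 and 129.5 CPM in 4-OHT ATII CM. Its interval ran from -2.23% to 8.58%, with a log2 fold change of 0.04 (adjusted p = 0.603 from edgeR). Per kilobase, GABARAPL1 was at 4.54-fold the level of MAP1LC3B. The log2 ratio of GABARAPL1 to MAP1LC3B CPM within a library was 1.75 ± 0.0150 in control ATII CM and 1.86 ± 0.0331 in 4-OHT ATII CM (SD, n = 3 each), a difference of 0.11 with no overlap. An exact two-sided permutation test gave p = 0.1, the smallest that 3 libraries against 3 allow, and 0.2 adjusted over the 2 ratios compared. The ratio of GABARAPL1 to GABARAPL2 differed by 0.031 (exact permutation p = 0.6, adjusted 0.6), and its groups overlapped. With 3 libraries a group, neither test could pass 0.05. SQSTM1, which encodes the cargo receptor p62, was at 354, 366 and 372 CPM in control ATII CM and 351, 359 and 365 CPM in 4-OHT ATII CM. These groups overlapped, and the interval ran from -6.19% to 3.22%.

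A further 139 genes of lysosomes and autophagy were followed beside the members, of which 136 were tested, and 5 were up (3.68%) and 1 was down (0.735%), where 2.95% and 2.76% of all genes tested were. The upregulated share is near that of all genes and below the 5.54% of genes with at least 10 CPM, and is no result about these genes as a class. Their median log2 fold change was 0.019. The DEG with the smallest p was LAPTM4A, a lysosomal and endosomal membrane protein, at 532, 549 and 527 CPM in control ATII CM and 617, 624 and 628 CPM in 4-OHT ATII CM, which is 0.22 higher on the log2 scale (adjusted p = 0.000336 from edgeR). SESN3, a sestrin that restrains mTORC1, was at 32.9, 31.4 and 33.0 CPM in control ATII CM and 41.2, 39.3 and 40.9 CPM in 4-OHT ATII CM, with a log2 fold change of 0.32 (adjusted p = 0.000717 from edgeR). BNIP3L, a receptor that takes mitochondria into autophagosomes, was at 185 to 187 and 212 to 215 CPM (log2 fold change 0.21, adjusted p = 0.00109 from edgeR). CTSC, a dipeptidyl peptidase of the lysosome, was at 1291 to 1325 and 1445 to 1491 CPM (log2 fold change 0.16, adjusted p = 0.00147 from edgeR). These 4 genes did not overlap between the groups and were DEGs in all 12 alternatives, which none of the 5 member DEGs was. ATG16L1, part of the complex that attaches ATG8 proteins to lipid, had a log2 fold change of 0.20 (adjusted p = 0.0267 from edgeR) and was called in 6 of 12 alternatives.

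The DEG that fell was EPG5, a tether between autophagosomes and lysosomes. It was at 99.0, 79.8 and 101 CPM in control ATII CM and 75.3, 78.7 and 80.5 CPM in 4-OHT ATII CM. Control replicate 2 lay within the range of the 4-OHT libraries, which made the groups overlap, and the change was -0.26 on the log2 scale (adjusted p = 0.0310 from edgeR) with all libraries and -0.35 (adjusted p = 4.72e-06) without that one. It was called in 7 of 12 alternatives, and not without control replicate 1 (adjusted p = 0.120), control replicate 3 (0.150), 4-OHT replicate 1 (0.128), 4-OHT replicate 2 (0.102) or 4-OHT replicate 3 (0.0540).

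By function these other genes were spread thinly over the classes. None of the 16 subunits of the V-ATPase, the proton pump that acidifies the lysosome, was a DEG, and their median log2 fold change was -0.00051. None of the 10 genes that tag, sort or modify lysosomal enzymes was a DEG either, with a median of -0.018. The other 30 hydrolases and activators held 1 upregulated DEG and had a median of 0.032, the other 15 membrane proteins 1 with a median of 0.020, the other 8 receptors 1 with a median of 0.062, and the 25 nutrient-sensing regulators 1 with a median of 0.015. The other 32 genes of the autophagy machinery held 1 up and 1 down, with a median of 0.026. GABARAP, the founding relative of GABARAPL1, had a mean of only 1.65 CPM, and 30.5% of its exon bases are shared with ENSG00000262526 on the same strand, which had 0 counts. The part of this overlap in its low count was not tested.

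**Figure D4:**
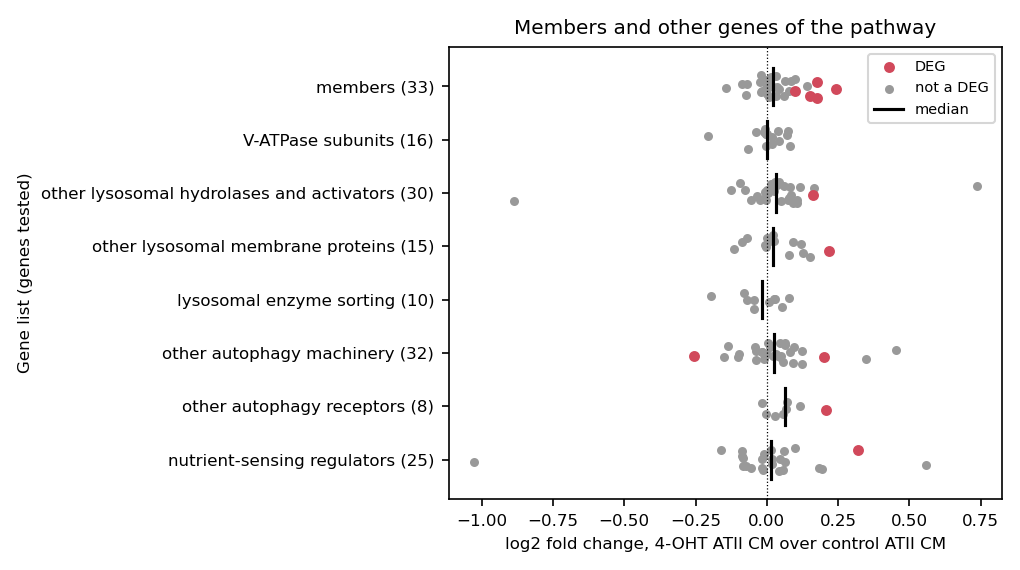
Log2 fold change (4-OHT ATII CM over control ATII CM, horizontal axis) of the 33 members and of the other pathway genes by class, one point per tested gene, with DEGs marked and a vertical bar at each row's median. The medians lie between -0.018 for enzyme sorting and 0.062 for the other autophagy receptors, and most of the points farthest from 0 that are not DEGs belong to genes of low count.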

How the data were processed

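RNA-Seq counts of 6 MRC5 libraries were analysed, grouped by the sample labels. The deposited table holds raw counts per gene, not normalized, which the authors obtained by trimming (Trim Galore), alignment to GRCh38 (HISAT2 2.1.0) and counting (featureCounts 1.6.5; versions per the submitters' processing notes). The annotation release, strand setting and treatment of multi-mapping reads are not given in the sources used here.

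Counts of 45 identifiers listed on 2 lines were added. Genes with at least 10 counts over all libraries were tested with edgeR 4.0.16 (R 4.3.3, TMM, quasi-likelihood test, group as the only term, Benjamini-Hochberg adjustment). CPM used TMM library sizes, and RPKM the deposited exon length. Alternatives were DESeq2 1.42.0, limma-voom 3.58.1, RLE size factors, other count filters, a replicate block and leaving out each library. On simulated counts of 18639 genes, edgeR called 165 of 200 genes changed 1.5-fold and 9 unchanged ones. The member DEGs changed by less than this, and changes of their size were not simulated.

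The members and lists were chosen with earlier results of these data known. By a rule, the named genes are every member, every DEG among the other pathway genes and marker genes. GABARAP, GABARAPL2 and the ratios of GABARAPL1 to its relatives were added after their values were seen. Overlapping or near-identical genes are named for some genes only. ATG9A, BECN1, NAGLU and SQSTM1 are among the members that have such genes without their being named. Transcripts were aligned to the 261 alternate contigs with minimap2 2.31 (at least 90% aligned, 98% identity). Promoter sequences are RefSeq's, and names came from GENCODE and matched 18962 of 19072 genes.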

Additional observations from a re-analysis of the deposited data

How the results depend on the processing

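The number of upregulated member DEGs was 5 with edgeR, 4 with DESeq2, 5 with limma-voom, RLE size factors and filterByExpr, and 7 when genes needed only 1 count, and it ran from 0 to 6 when single libraries were left out. The upregulated share of all genes was 3.15% with the 1-count filter and 1.56% to 3.73% in the leave-outs. With limma-voom the 5 include CTSB and not HEXA. No alternative gave a downregulated one. For the other pathway genes the leave-outs gave 4 to 7 upregulated and 0 to 5 downregulated DEGs, and 1 downregulated DEG became 2 with limma-voom, 4 with the 1-count filter and 2 with filterByExpr. Over all genes, DEGs ranged from 533 without 4-OHT replicate 2 to 1601 with the 1-count filter, and the median log2 fold change of all genes moved to between -0.0072 and 0.0050. The causes were not tested.

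Of 396 values (33 members under 12 alternatives), 334 kept direction and call, 22 lost a call, 5 gained one and 35 changed sign. The 15 members with a changed sign had log2 fold changes of at most 0.068 in size and include no DEG. With limma-voom CTSA was at 0.00088 and CTSL at 2.5e-05. With the 1-count filter CTSA was at 0.0087, CTSL at 0.0080, CTSZ at 0.0046, ULK1 at 0.0073 and BECN1 at 0.0052. With single libraries left out the log2 fold changes ran from -0.048 to 0.14 for TFEB, -0.044 to 0.013 for TFE3, -0.018 to 0.021 for CTSA, -0.017 to 0.020 for CTSL, -0.27 to 0.14 for CTSS, -0.026 to 0.019 for CTSZ, -0.00097 to 0.063 for TPP1, -0.047 to 0.018 for GLA, -0.045 to 0.042 for GLB1, -0.084 to 0.014 for NAGLU, -0.045 to 0.061 for LIPA, -0.031 to 0.029 for ULK1, -0.012 to 0.062 for ATG9A, -0.048 to 0.020 for BECN1 and -0.040 to 0.056 for UVRAG. Without a change of sign they ran from 0.046 to 0.11 for GUSB and 0.022 to 0.058 for MAP1LC3B.

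Replicate numbers were not taken to pair the libraries, since deviations of same-numbered libraries correlated at only 0.063, 0.026 and 0.039 over 13051 genes, although every library correlated best with its own number. With a replicate block, 4 members were upregulated DEGs, HEXA not being called (adjusted p = 0.0574), 5 and 1 of the other pathway genes were up and down, and 985 genes in all were DEGs. Depth limited CTSS, at 1.33 CPM, where changes smaller than its interval were not detectable.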
